A study of Homo sapiens with 6 samples.

Results

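Chromosome 21 and the tip of the short arm of chromosome 5 (5p) were described as 2 stretches of the genome in the acute myeloid leukaemia line Kasumi-1, of human origin, with and without a knockout of SETD8. Members were the genes of the deposited table on chromosome 21, or on chromosome 5 with a start below 10 Mb, whose normalized read count averaged at least 50 over the 6 libraries. The rule gave 96 of the 7983 listed genes, 74 on chromosome 21 and 22 on 5p. The regions were selected on the direction of knockout over control in these same libraries, where most of their genes were already known to be higher. The values of knockout over control below are therefore a description with no test, and the prevailing direction supports nothing further.

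The control cells were labelled WT and carried the non-targeting guide sgNT, and the knockout cells were labelled SETD8 knockout and carried sgSETD8, with CRISPR/Cas9 as the method and 3 libraries in each group. SETD8, whose current symbol is KMT5A, is the methyltransferase that places a single methyl group on histone H4 lysine 20. Nothing in the labels tells if the 3 libraries of a group came from different cultures, clones or guides, so their spread may be technical. Values are the read counts that the authors normalized for depth, and each log2 fold change compares knockout with control after adding 1 to every value, so the change of low genes is understated.

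Chromosome 21 is the smallest human autosome and the one present in an extra copy in Down syndrome. It carries RUNX1, a transcription factor that blood stem cells need to form, and the ETS family factors ERG and ETS2. In Kasumi-1 the t(8;21) translocation joins RUNX1 to RUNX1T1 of chromosome 8, and the table counts reads per gene, so reads of intact RUNX1 and reads of the fusion cannot be told apart. The tip of 5p carries SDHA, the flavoprotein subunit of succinate dehydrogenase, which serves both the citric acid cycle and the respiratory chain. DNA copy number was not analysed here.

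Reads in the listed genes numbered 10966349 to 12557974 per library, and mitochondrially encoded genes took 4.62% to 5.86% of them. The authors' deposited table lists genes up to a p of 0.049998, and genes outside it were not analysed here. The targeted gene KMT5A had control values of 1191, 1212 and 1255 and knockout values of 880, 933 and 939, a log2 fold change of -0.41. Of 10 blast markers 9 were in the table, with a summed level of 84945 to 87683 in control and 59816 to 60917 in knockout libraries. KIT and MPO carry most of that difference (log2 fold changes of -0.48 and -2.99), and of the 9 blast markers 4 were called higher and 3 lower. Of 4 B cell markers 3 were listed (sums of 251 to 271 and 801 to 886), of 5 T cell markers 2 (sums of 1015 to 1059 and 1265 to 1517, with CD2 at 0 in control), and of 5 erythroid markers 0. The part of these markers in the results below was not tested, and in bulk RNA fewer cells of a kind and less RNA per cell cannot be told apart.

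In the knockout libraries 84 of the 96 members lay above their control mean, 64 of 74 on chromosome 21 and 20 of 22 on 5p. The median log2 fold change was 0.43 on chromosome 21, a 1.35-fold level, and 0.65 on 5p, a 1.57-fold level. Of the members 82 were called higher and 11 lower by limma-trend at an adjusted p below 0.05. The same call held for 47.3% (higher) and 46.7% (lower) of all 7516 tested genes, since the table lists genes already selected for a difference, and nothing is read from the members' count. In 81 members every knockout library lay above every control library, and in 11 every one lay below, against 48.0% and 47.4% of all tested genes.

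All 3 knockout libraries showed the same shift. Relative to each gene's control mean, the chromosome 21 median was 0.48, 0.47 and 0.46 on the log2 scale in the knockout libraries, and 0.0024, -0.010 and 0.0090 in the control libraries. On 5p it was 0.64, 0.65 and 0.64 against -0.0075, -0.0024 and 0.012. The other 6692 genes with a mean of at least 50 had medians of 0.055, 0.10 and 0.057 in the knockout libraries. The median of their log2 fold changes was 0.14. The table leaves out genes with little change, so these medians do not measure the centre of the scaling. The share of all listed normalized reads that fell on the chromosome 21 members was 0.845%, 0.836% and 0.830% in control and 1.15%, 1.21% and 1.21% in knockout libraries. For the 5p members it was 0.249%, 0.249% and 0.254% against 0.369%, 0.378% and 0.379%.

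**Figure D1:**
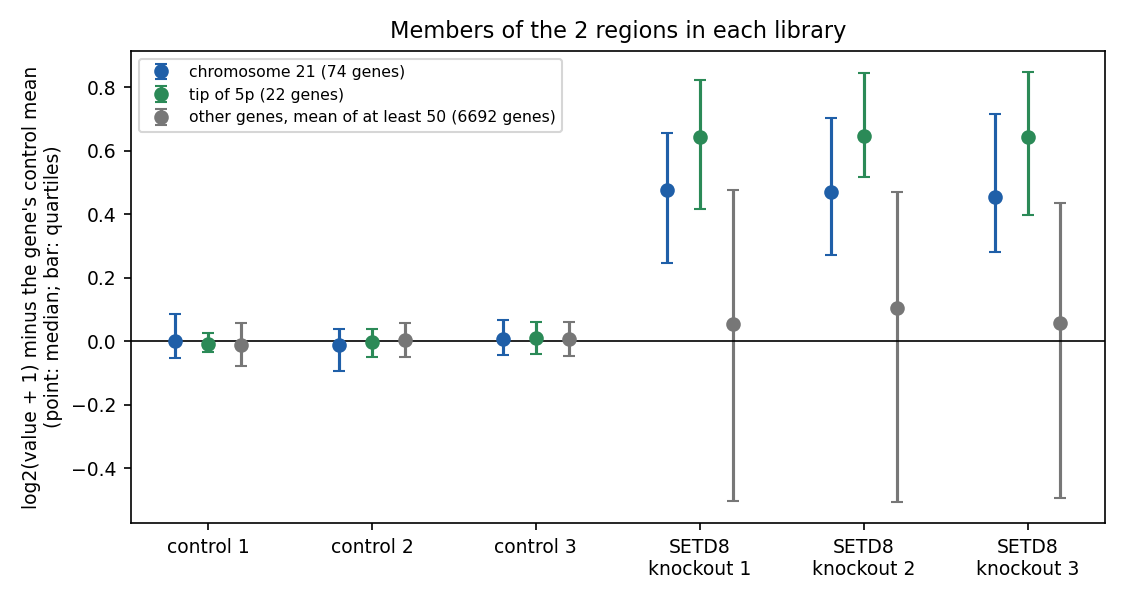
Median (point) and quartiles (bar) of log2(value + 1) minus the gene's control mean, for each library, over the 74 chromosome 21 members, the 22 members on 5p and the other 6692 genes with a mean of at least 50. The 3 knockout libraries have medians of 0.46 to 0.48 on chromosome 21 and 0.64 to 0.65 on 5p, and the quartile bars of the other genes cross 0.

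The members did not share one size of change. On chromosome 21 the middle of the distribution ran from 0.28 to 0.69 (quartiles; 1.21-fold to 1.61-fold), with an SD of 0.53, and on 5p from 0.45 to 0.86 (1.36-fold to 1.81-fold), with an SD of 0.47. Which genes were included moved these SDs. On 5p the SD was 0.23 over the 10 members that overlap no protein-coding gene, SDHA included, all above 0. On chromosome 21 it was 0.85 with a floor of 10 on the mean in place of 50. Within 0.25 of their own region's median lay 59.5% of chromosome 21 and 59.1% of 5p members. The same share was 76.9% for the mitochondrial genes, 46.4% on chromosome 20, 45.3% on chromosome 8, 44.5% on chromosome 17 and 20.2% over all other genes. The table leaves out genes with little change, so few genes can lie near a median close to 0, and regions picked for 1 direction avoid that gap; no difference in uniformity is read from these shares. The median SE of a member's log2 fold change was 0.084, and 42 of 74 chromosome 21 members and 12 of 22 on 5p lay more than 2 of their own SE from their region's median. For 54 of the 96 members the distance from the median of all members likewise exceeded 2 SE. Of the other 6692 genes with a mean of at least 50, 5790 lay more than 2 SE from their own median. The gap of genes with little change bears on this count too, so nothing is read from the difference.

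The members below 0 were mostly genes with lower counts, 11 of 12 having a mean below 1000. Of the 10 members at least 2-fold higher, 6 also had a mean below 1000 and 4 a mean of at least 1000. The middle width was similar at both levels. The 43 members with a mean of at least 1000 had an SD of 0.29 around a median of 0.49, and 42 of them lay above 0, with DYRK1A the exception. The 53 members below 1000 had the same median, an SD of 0.64 and 42 above 0. The distance between quartiles was 0.38 for the first group and 0.42 for the second, and 30 of 43 and 24 of 53 lay more than 2 SE from their group's median. Adjacent members on chromosome 21 differed by a median of 0.32 over 73 pairs and those on 5p by 0.34 over 21 pairs. Over all genes with a mean of at least 50 that median was 0.51, for 6763 pairs, and the difference was not tested. Of the 88 protein-coding members 79 lay above 0, and of the 8 others, which are noncoding RNAs and 1 pseudogene, 5 did.

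**Figure D2:**
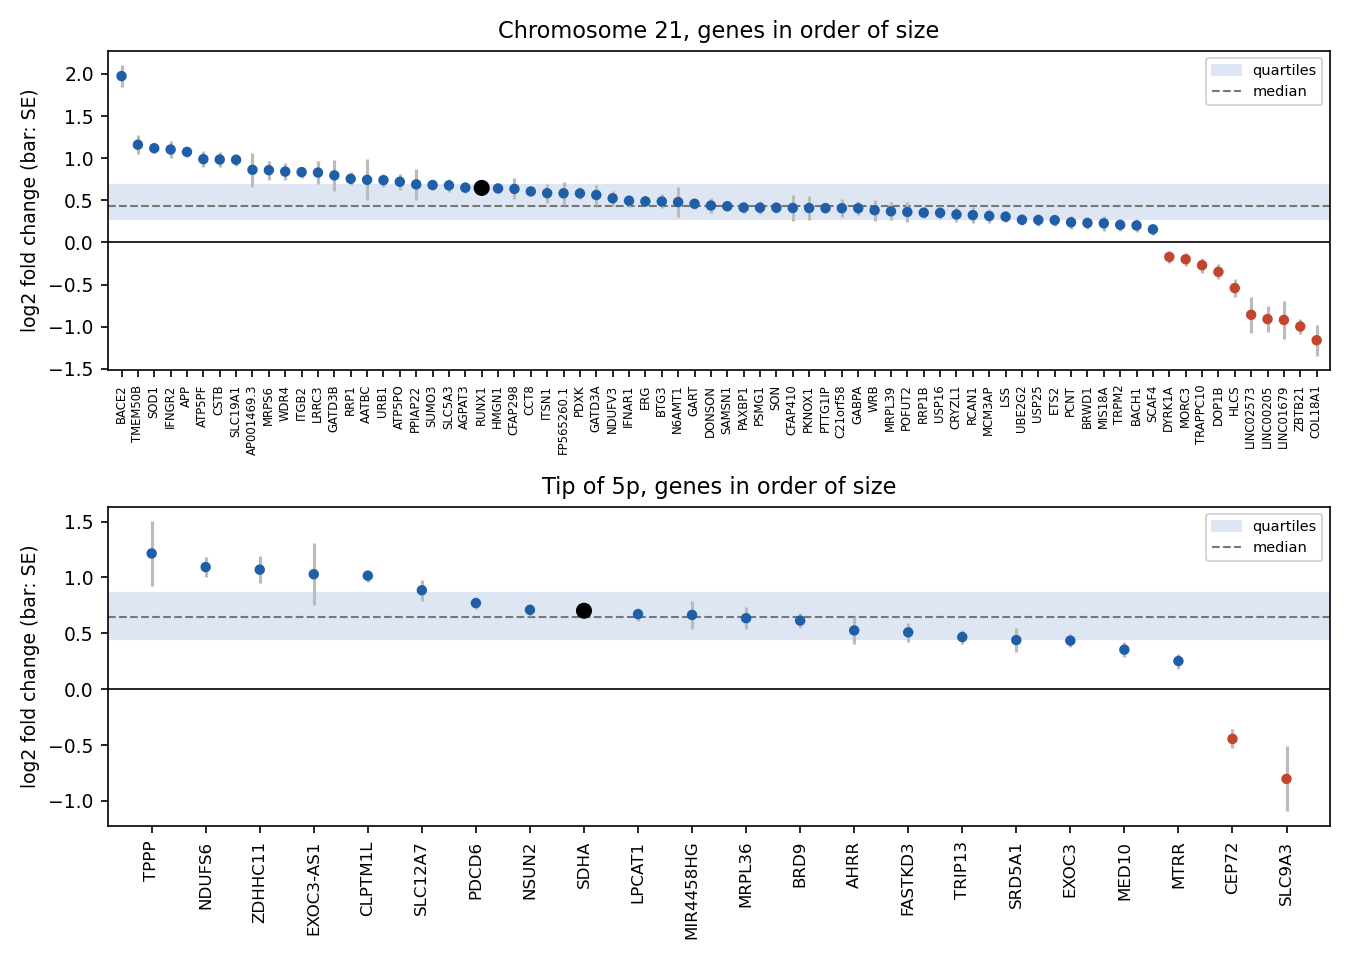
Log2 fold change with its SE for each member in order of size, chromosome 21 above and 5p below, with the region's median (dashed) and quartiles (band). RUNX1 and SDHA are the black points: RUNX1 is 23rd of 74 and SDHA 9th of 22, and 12 members lie below 0.

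RUNX1 sat in the upper part of the chromosome 21 distribution, inside its quartiles. RUNX1 (ENSG00000159216, hg38 chromosome 21, 34787801 to 36004667, minus strand) read 4185, 4253 and 4349 in control libraries and 6089, 6940 and 7044 in knockout libraries. All knockout libraries were above all controls, and knockout library 1 was the lowest of its group. The means were 4262 ± 82.8 and 6691 ± 524 (SD, n = 3), a log2 fold change of 0.65 (SE 0.060) or 1.57-fold. It ranked 23 of 74 on chromosome 21 and 34 among all 96 members, and its distance from the chromosome's median was 0.21, or 3.57 of its SE.

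SDHA lay near the centre of the 5p distribution. SDHA (ENSG00000073578, hg38 chromosome 5, 218241 to 256700, plus strand) read 3632, 4101 and 4212 in control and 6375, 6780 and 6243 in knockout libraries. The groups did not overlap, and control library 1 was the lowest of all. The means were 3981 ± 308 and 6466 ± 280 (SD, n = 3), a log2 fold change of 0.70 (SE 0.061) or 1.63-fold. It ranked 9 of 22 on 5p and 27 among all 96 members, 0.052 above the 5p median, which is 0.85 of its SE. SDHA has near-identical pseudogene copies, and the sources used here do not tell how reads shared with them were counted. The authors' deposited table gives log2 fold changes of 0.65 for RUNX1 and 0.70 for SDHA.

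The promoters of these 2 genes and of ZBTB21, the chromosome 21 transcription factor with the largest fall, are shown so that their start regions can be read side by side. Each line gives the 250 bases before 1 RefSeq start (GRCh38.p14), 5′ to 3′ on the gene's strand. Capitals mark matches on either strand to the RUNX core TGTGGT, the Sp1 box GGGCGG or the E-box CACGTG. RUNX1 has several starts, of which 1 is shown (chr21:34888700-34888949), SDHA lies at chr5:218070-218319 and ZBTB21 at chr21:42010361-42010610.
RUNX1: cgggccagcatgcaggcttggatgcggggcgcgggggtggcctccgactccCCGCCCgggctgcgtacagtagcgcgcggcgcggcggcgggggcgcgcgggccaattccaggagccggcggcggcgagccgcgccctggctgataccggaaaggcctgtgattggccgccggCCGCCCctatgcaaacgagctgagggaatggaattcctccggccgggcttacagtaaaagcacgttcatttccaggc
SDHA: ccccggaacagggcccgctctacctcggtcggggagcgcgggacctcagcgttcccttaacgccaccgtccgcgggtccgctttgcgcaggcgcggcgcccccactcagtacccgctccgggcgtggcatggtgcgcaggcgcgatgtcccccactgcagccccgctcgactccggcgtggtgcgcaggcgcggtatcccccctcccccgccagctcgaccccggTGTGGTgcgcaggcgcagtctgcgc
ZBTB21: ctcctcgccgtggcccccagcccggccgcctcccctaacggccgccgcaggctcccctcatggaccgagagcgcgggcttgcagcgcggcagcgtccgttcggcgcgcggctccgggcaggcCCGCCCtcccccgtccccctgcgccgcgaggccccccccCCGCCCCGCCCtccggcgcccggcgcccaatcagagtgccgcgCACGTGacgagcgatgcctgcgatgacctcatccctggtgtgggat

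The RUNX1 window holds 2 Sp1 matches, both on the minus strand of the gene, and the SDHA window holds 1 RUNX core. The ZBTB21 window holds 3 Sp1 matches, of which the last pair share a base, and 1 E-box. Of the members 76 had a promoter in the RefSeq table, and over the full windows, which reach past the start, the RUNX core was present in 8 (10.5%). It was present in 9.38% of the 5245 listed genes with a promoter and in 13.1% of all 27305 promoters. The ETS motif CCGGAAGT was in 14.5% of the members' promoters, 9.78% of those of listed genes and 4.44% of all. Sp1 boxes were in 68.4%, 71.4% and 44.6%, and E-boxes in 6.58%, 11.3% and 7.43%. A match is only a match of letters.

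In the order of the reference genome the members formed runs of 1 direction. With 64 of 74 chromosome 21 members above 0, runs above 0 form in any order, and an effect of position was not tested. Consecutive members also skip genes outside the table, which lists 76 of 231 protein-coding genes of chromosome 21. From MRPL39 to RUNX1 (hg38 chromosome 21, 25585656 to 36004667) 27 consecutive members over 10.4 Mb were above 0, with log2 fold changes from 0.16 to 1.16. Directly beyond RUNX1, DOP1B, MORC3, HLCS and DYRK1A (36156782 to 37526358) formed a run of 4 below 0. DOP1B starts 0.15 Mb from RUNX1 with -0.35, while RCAN1, an inhibitor of calcineurin 0.17 Mb from RUNX1 on the other side, had 0.32. The next 7 members, from ERG to BACE2, were again above 0. On 5p the 15 members from TPPP to MIR4458HG were all above 0.

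Most of the exceptions on chromosome 21 lay on the telomeric side of RUNX1. The sides are those of the reference genome, and RUNX1 is the gene that the t(8;21) joins to RUNX1T1 in these cells. Any part of the translocation was not tested. Of the 33 members on the centromeric side 32 were above 0 (median 0.49, SD 0.37), and of the 40 on the telomeric side 31 (median 0.41, SD 0.61). By segments of 5 Mb, 6 of the 7 members before 25 Mb were above 0, LINC02573 alone being below. Further on, 8 of 8 were above 0 from 25 to 30 Mb, 19 of 19 from 30 to 35 Mb (median 0.59), 6 of 10 from 35 to 40 Mb (median 0.25), 18 of 21 from 40 to 45 Mb (median 0.56) and 7 of 9 beyond 45 Mb (median 0.31). Among the segments from 25 Mb on, the lowest median was in the one that holds the run of 4 lower genes.

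**Figure D3:**
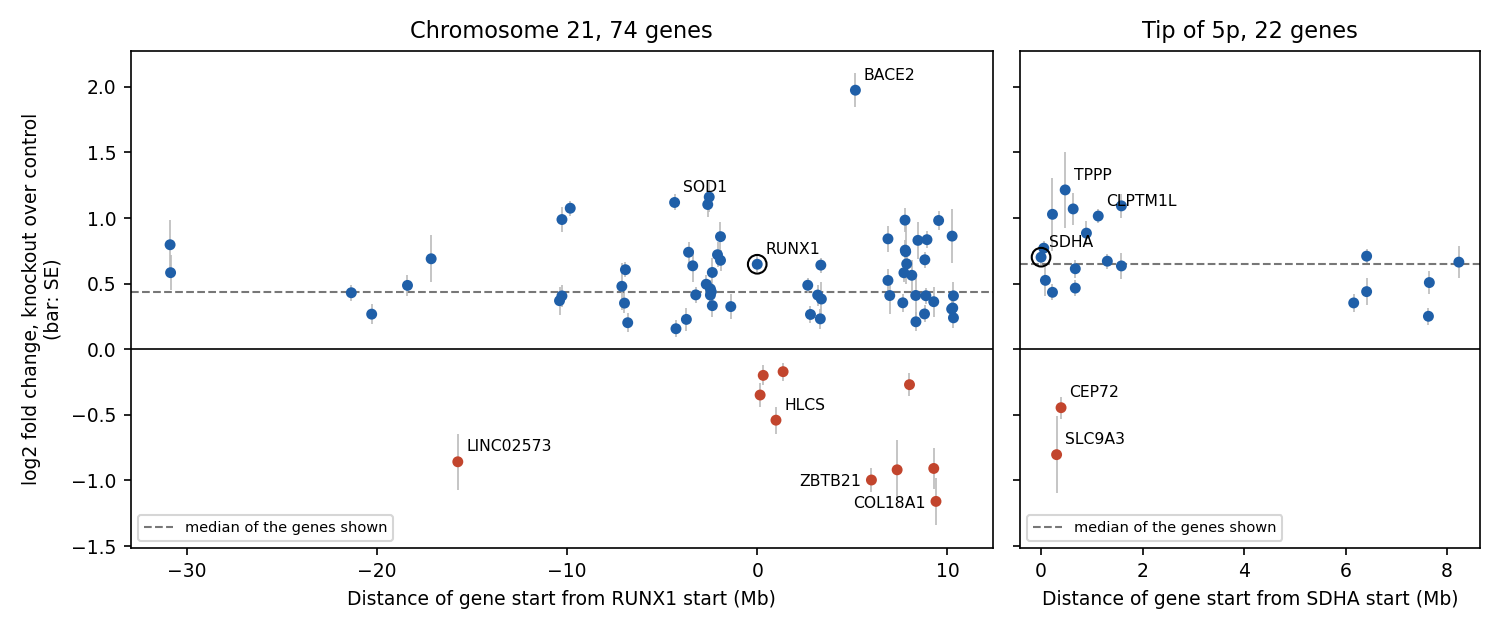
Log2 fold change with its SE of each member against the distance of its start from RUNX1 (left) or SDHA (right), in Mb; the dashed line is the region's median. Members above 0 are blue and members below 0 red: 32 of 33 to the left of RUNX1 are above 0, and 4 red points lie directly to its right.

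The bound of 10 Mb on 5p did not coincide with an end of the pattern. The last members inside it were MTRR (0.25), FASTKD3 (0.51) and MIR4458HG (0.66). The first listed genes outside it with a mean of at least 50 were FAM173B, CCT5 and CMBL, with 1.01, 0.80 and 1.04. From 10 to 15 Mb 9 of 9 listed genes were above 0 (median 0.80). The share was 1 of 1 from 15 to 20 Mb and 2 of 3 from 20 to 25 Mb (median 0.38). It was 6 of 10 from 30 to 35 Mb (median 0.26) and 8 of 9 from 35 to 40 Mb (median 0.61). From 40 to 45 Mb it was 9 of 13 (median 0.21), and over all of chromosome 5 61.5% of 314 (median 0.26). At the floor on the mean, EXOC3-AS1 (mean 51.3, log2 fold change 1.03) and TPPP (59.7, 1.21) fell just inside and AC122710.2 (49.8, -0.98) and AC026740.1 (49.0, 1.18) just outside. Below the floor lay 24 listed genes of the regions, 12 of which were higher.

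Among 24 chromosomes with at least 10 such genes, mitochondrial included, chromosome 21 had the highest median and the highest share above 0. The medians nearest to it were 0.43 for the mitochondrial genes and 0.38 for chromosome 8, where 73.5% of 245 genes were above 0. The lowest were chromosomes 9 (-0.48, 21.8% above 0) and 17 (-0.45, 24.5%). Among 177 windows of 10 Mb with at least 15 genes, the 5p tip ranked 1 in median and 13 in smallness of SD. Chromosome 8 from 140 to 150 Mb came close, with a median of 0.62, 51 of 58 genes above 0 and ranks 2 and 22. Chromosome 21 from 30 to 40 Mb ranked 12 and 4, and from 40 to 50 Mb 16 and 84. The ranks of the 5p tip and of chromosome 21 describe regions picked for their values.

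**Figure D4:**
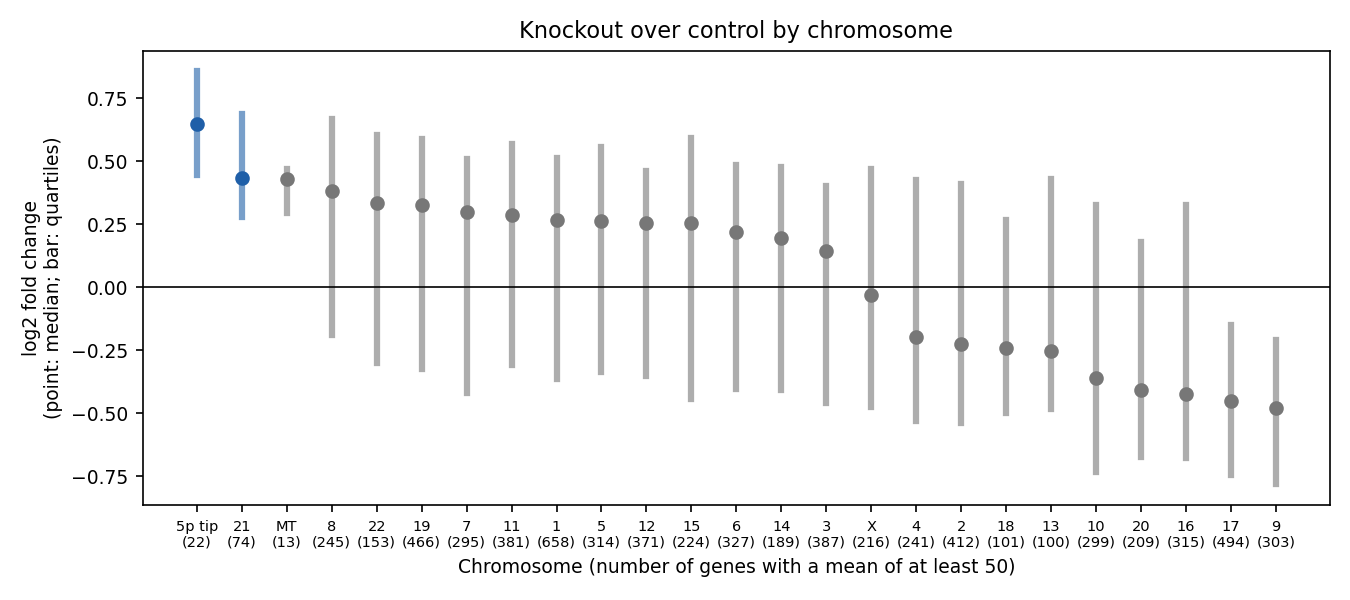
Median (point) and quartiles (bar) of log2 fold change over listed genes with a mean of at least 50 on each chromosome, with the 5p tip shown apart at the left. The 5p tip (0.65) and chromosome 21 (0.43) have the highest medians, with lower quartiles above 0, and chromosomes 17 and 9 the lowest. The mitochondrial genes come next to chromosome 21, with a median of 0.43 and a lower quartile of 0.29 (0.28 on chromosome 21).

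Transcription factors and chromatin proteins were the largest group, with 11 of 13 called higher, 2 lower and a median of 0.41 (all tested genes had a median of 0.14). Counts called in this and the following role lists stand beside 82 of all 96 members called higher and 11 lower. Over all tested genes the shares were 47.3% and 46.7%. The regions were picked for being higher, so nothing particular to a list is read from these counts. HMGN1, a nucleosome binding protein, read 4543, 4487 and 4208 in control and 7262, 6797 and 6591 in knockout libraries, a log2 fold change of 0.64 with no overlap. ERG, an ETS factor of blood stem cells, read 1849, 1940 and 2019 against 2708, 2701 and 2730 (0.49). Its knockout libraries were closely alike and all above control. BRD9, a bromodomain subunit of a SWI/SNF complex, had 0.61, AHRR, the repressor of the aryl hydrocarbon receptor, 0.53, and GABPA, another ETS factor, 0.41. PKNOX1, MED10, ETS2, BRWD1 and BACH1 had 0.41, 0.35, 0.27, 0.23 and 0.20, and MORC3 and ZBTB21 were lower.

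The cofactors and relatives of RUNX1 on other chromosomes did not share 1 direction. CBFB, which binds DNA together with RUNX proteins, had 0.34, and RUNX1T1, the fusion partner, had 0.15 and was not called. RUNX2 and RUNX3 were lower, at -0.82 and -0.45. All 4 listed HMGN genes were called higher, with a median of 0.64.

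Every 1 of the 11 members that encode mitochondrial proteins was called higher, beside 82 of all 96 members and 47.3% of all tested genes. Their log2 fold changes ran from 0.37 to 1.09, with a median of 0.70. NDUFS6, an accessory subunit of complex I, read 1440, 1181 and 1554 in control and 3405, 2916 and 2584 in knockout libraries (1.09). ATP5PF, a peripheral stalk subunit of ATP synthase, read 884, 742 and 877 against 2006, 1494 and 1501 (0.99), and knockout library 1 stood highest for both genes. ATP5PO of the same stalk had 0.72, NDUFV3 of complex I 0.52, and the mitochondrial ribosomal proteins MRPS6, MRPL36 and MRPL39 0.86, 0.63 and 0.37. FASTKD3, an RNA binding protein of mitochondria, had 0.51. GATD3A (0.56) and GATD3B (0.80) are near-identical copies, so reads may have been split between them. MRPS6 overlaps SLC5A3 in part, so its value is uncertain too.

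Partner subunits are given beside the 47.3% of all tested genes that were called higher, and nothing particular to them is read from their counts. The 4 listed succinate dehydrogenase genes were called higher, with SDHA at 0.70 above SDHC (0.33), SDHD (0.28) and SDHB (0.20); these differences between subunits were not tested. Of 15 listed ATP synthase genes, ATP5PF and ATP5PO included, 14 were called higher, with a median of 0.59, and ATP5PD was lower (-0.37).

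Redox and metabolic enzymes were called higher in 10 of 11 cases, with a median of 0.44. SOD1, the cytosolic superoxide dismutase, read 2678, 2727 and 2729 in control and 5987, 6336 and 5382 in knockout libraries. The control libraries were nearly equal and every knockout library was well above them, with a log2 fold change of 1.12 (SE 0.061). CCS, which loads copper onto SOD1 and lies on chromosome 11, had 0.44. GART, a trifunctional enzyme of purine synthesis, read 3727, 3773 and 3924 against 5299, 5481 and 4941 (0.46). LPCAT1 and AGPAT3, acyltransferases of phospholipid synthesis, had 0.67 and 0.65, and PDXK, the pyridoxal kinase, 0.58. SRD5A1, a steroid reductase, POFUT2, a protein fucosyltransferase, CRYZL1 and LSS, the lanosterol synthase, had 0.44, 0.36, 0.33 and 0.31. MTRR, which reactivates methionine synthase, had 0.25.

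All 9 members listed under ubiquitin, SUMO and protein turnover were called higher, with a median of 0.61 and a range of 0.27 to 1.97. CCT8, a subunit of the CCT chaperonin that folds actin and tubulin, read 7324, 6939 and 7155 in control and 11198, 11370 and 10071 in knockout libraries (0.61). The 7 listed CCT genes, 6 of them on other chromosomes or beyond the 5p bound, were all called higher, with a median of 0.51. BACE2, an aspartyl protease, had the highest value of all members, with 122, 115 and 136 against 513, 499 and 457 (1.97, SE 0.13, 3.93-fold). Its knockout libraries were all far above control, at a low level. CSTB, a cathepsin inhibitor, and SUMO3, a ubiquitin-like modifier, had 0.98 and 0.68. PSMG1, a proteasome assembly chaperone, USP16 and USP25, both deubiquitinating enzymes, and UBE2G2, a ubiquitin conjugating enzyme, had 0.41, 0.35, 0.27 and 0.27. TPPP, a tubulin binding protein placed in this list, read 47.0, 26.3 and 32.7 against 70.9, 63.5 and 118 (1.21).

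Both listed interferon receptor chains were called higher. IFNGR2, a chain of the interferon gamma receptor, read 416, 491 and 496 in control and 1159, 956 and 910 in knockout libraries (1.10). IFNAR1, a chain of the type I interferon receptor, read 889, 913 and 929 against 1366, 1268 and 1220 (0.50). In both genes the groups did not overlap. On another chromosome IFNGR1, the other chain of the interferon gamma receptor, was lower (-0.34), so the chains of this receptor did not share 1 direction. IFNGR2 overlaps TMEM50B (1.16) on the opposite strand, so the value of IFNGR2 is uncertain.

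Of the 8 members for transport, adhesion and matrix 6 were called higher and 2 lower, with a median of 0.86. APP, the amyloid precursor protein, read 11598, 12380 and 12161 in control and 24450, 26094 and 25576 in knockout libraries (1.07, SE 0.057). CLPTM1L, a membrane protein on 5p, read 3290, 3205 and 3427 against 6494, 6895 and 6661. Group means differed 2.11-fold for APP and 2.02-fold for CLPTM1L, and no library came near the other group. ITGB2, the common chain of the leukocyte integrins, read 1728, 1949 and 1703 against 3043, 3189 and 3358 (0.83). SLC19A1, the reduced folate carrier, had 0.98, SLC12A7, a potassium chloride cotransporter, 0.88, and SLC5A3, a myo-inositol transporter, 0.68.

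**Figure D5:**
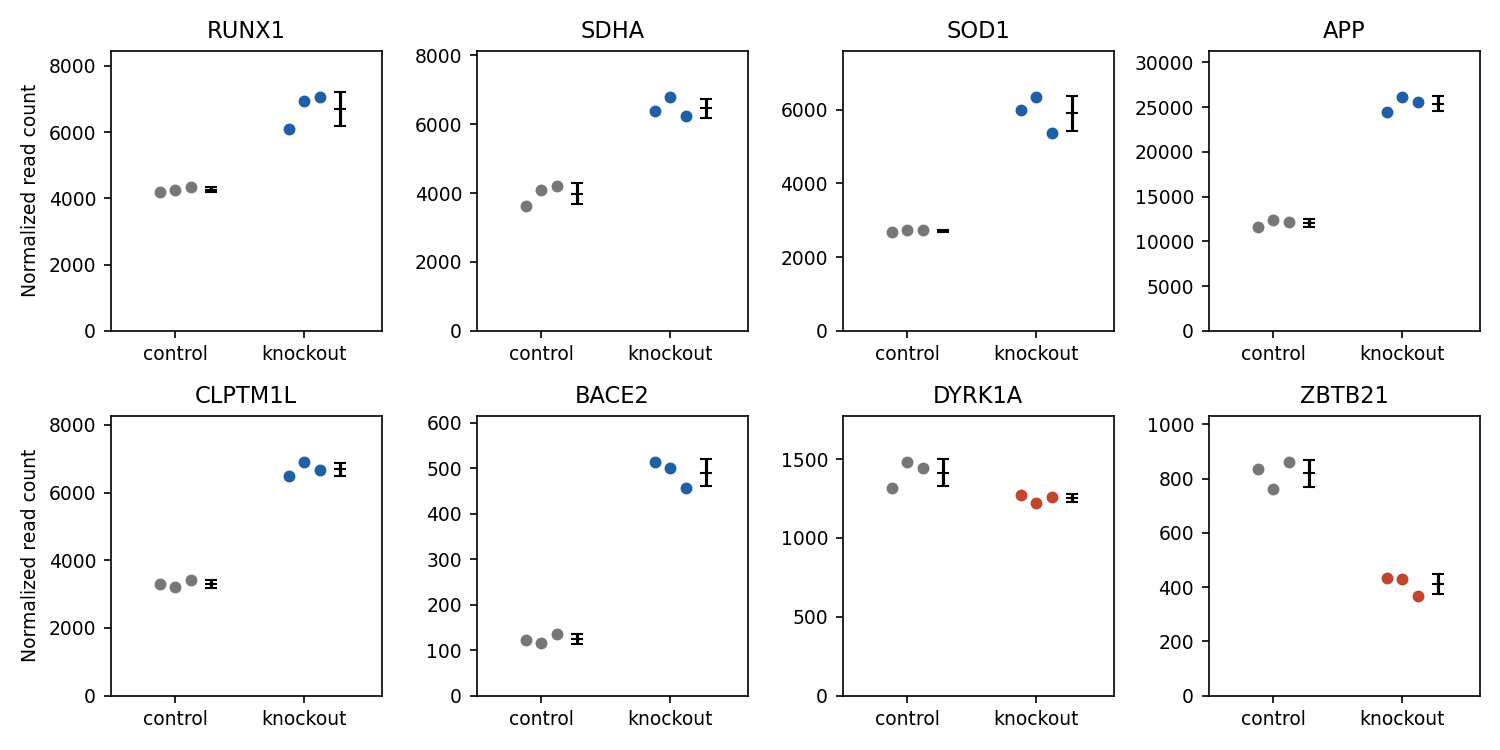
Normalized read count in each library for 8 members, from 0, with the group mean and SD beside the points. Control and knockout libraries do not overlap in any of the 8; DYRK1A and ZBTB21 are lower in the knockout and the other 6 higher.

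RNA processing and ribosome assembly had 8 of 10 members called higher and 1 lower, with a median of 0.41. The lower one was DOP1B, a factor of endosomal trafficking placed in this list. SON, a splicing cofactor of nuclear speckles, read 6419, 6446 and 6457 in control and 7635, 9083 and 9089 in knockout libraries (0.41), and knockout library 1 stood below the other pair. NSUN2, an RNA cytosine methyltransferase, read 3284, 3277 and 3326 against 5486, 5337 and 5347 (0.71). WDR4, a subunit of a tRNA methyltransferase, and RRP1, a ribosome biogenesis factor, had 0.84 and 0.76. RRP1B, MCM3AP and PAXBP1 had 0.35, 0.31 and 0.41. N6AMT1 had 0.48, but its highest control library (183) exceeded its lowest knockout library (176). SCAF4, a splicing-related factor, read 1415, 1454 and 1386 against 1475, 1609 and 1665 (0.16) and was not called.

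Genes of division and replication were the group with the smallest median, 0.32, with 4 of 6 called higher and 1 lower. TRIP13, an ATPase of the mitotic checkpoint, read 1709, 1686 and 1683 in control and 2476, 2302 and 2242 in knockout libraries (0.47). DONSON, a replication fork factor, and PTTG1IP, which binds securin, had 0.44 and 0.41. PCNT, the pericentriolar scaffold pericentrin, read 1513, 1788 and 1692 against 1718, 2050 and 2138 (0.24), with 1 knockout library inside the control range. MIS18A, needed to load CENP-A at centromeres, had 0.23 and was not called.

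Among 10 signalling and trafficking members 8 were called higher and 1 lower, with a median of 0.51. TMEM50B, a membrane protein of the secretory pathway, read 272, 211 and 245 against 562, 517 and 543 (1.16). It overlaps IFNGR2 on the opposite strand, so its value is uncertain. PDCD6, a calcium binding protein of vesicle trafficking, read 2081, 2167 and 2147 against 3548, 3609 and 3753 (0.77). EXOC3, a subunit of the exocyst, had 0.43, ITSN1, an endocytic scaffold, 0.58, CFAP298 0.64 and WRB, a receptor for tail-anchored proteins, 0.38. URB1, a ribosome assembly factor placed in this list, had 0.74. Of the 16 members in no list 13 were above 0, among them ZDHHC11 (1.07), a palmitoyltransferase gene with a close copy, SAMSN1 (0.43), BTG3 (0.49) and LRRC3 (0.83). TRPM2, a calcium permeable channel, had 0.21 with overlapping groups.

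The 12 exceptions came from several of the role lists, and 3 are noncoding RNAs in none of them. Their median log2 fold change was -0.67. ZBTB21, a zinc finger repressor, read 835, 763 and 860 in control and 434, 431 and 368 in knockout libraries (0.501-fold, SE 0.094 on the log2 scale). COL18A1, which encodes the basement membrane collagen from which endostatin is cut, read 168, 154 and 211 against 73.0, 83.4 and 78.4 (-1.16). In both genes every knockout library was below every control.

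The run of 4 beyond RUNX1 had smaller differences. HLCS, the ligase that attaches biotin to carboxylases, read 595, 524 and 634 against 364, 421 and 418 (-0.54). DOP1B, a factor of endosomal trafficking, read 725, 775 and 783 against 538, 633 and 625 (-0.35), and MORC3, a nuclear ATPase, 1025, 941 and 991 against 910, 822 and 844 (-0.20). The groups did not overlap in these 3 genes. DYRK1A, a kinase of the Down syndrome region, read 1316, 1480 and 1443 against 1275, 1224 and 1262 (-0.17) and was not called, although its groups did not overlap. Other scalings called it lower, at -0.18 with TMM and -0.22 with upper-quartile scaling. Its sign turned to 0.18 when a trend with gene length was removed from the whole table.

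TRAPPC10, a subunit of a vesicle tethering complex, read 736, 826 and 867 in control and 620, 680 and 713 in knockout libraries (-0.27). The noncoding RNAs LINC02573, LINC00205 and LINC01679 had -0.86, -0.91 and -0.92, all with no overlap. LINC01679, for example, read 97.1, 91.4 and 79.3 against 51.1, 40.7 and 48.6. On 5p, CEP72, a protein of centriolar satellites, read 1006, 1041 and 954 against 650, 767 and 793 (-0.45). SLC9A3, a sodium proton exchanger, read 75.6, 87.5 and 61.4 against 62.5, 25.8 and 45.8 (-0.80), and its groups overlapped by 1 library.

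In 3 cases an exception overlaps a higher neighbour on the opposite strand: COL18A1 overlaps SLC19A1, CEP72 overlaps TPPP and SLC9A3 overlaps EXOC3. The library kit marks strand, but the sources used here do not tell if the counting used it, and these pairs and the antisense genes EXOC3-AS1 (1.03), AP001469.3 (0.86) and AATBC (0.74) are therefore uncertain. PPIAP22 (0.69) is a processed pseudogene, and FP565260.1 (0.58) lies on the short arm near GATD3B, where copies of genes of the long arm are found. Higher members overlap each other too, such as TMEM50B and IFNGR2 on opposite strands and SLC5A3 and MRPS6 on the same strand. Their values are likewise uncertain. In all, 34 members overlap a protein-coding gene, 4 of them below 0. With GATD3A also left out as a copy of GATD3B, the 61 remaining members had a median of 0.43, an SD of 0.52 and 53 above 0. SDHA and PPIAP22 stayed among these 61, although SDHA has pseudogene copies and PPIAP22 is a pseudogene.

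Members above and below 0 also differed in length, as did the rest of the table. Of the shortest 32 members (length up to 4775 bases in the deposited table) 29 were above 0 with a median of 0.65, of the middle 32 30 with 0.42, and of the longest 32 25 with 0.44. Other genes of the same lengths were above 0 in 58.8%, 48.3% and 38.7% of cases, with medians of 0.27, -0.18 and -0.27. Across genes, which are not independent replicates, Spearman's rho of log2 fold change with length was -0.28 for the 74 on chromosome 21, -0.0028 for the 22 on 5p and -0.18 for the 6692 others. Its part in the members' values was not tested beyond the removal of the length trend, after which the medians were 0.52 on chromosome 21 and 0.70 on 5p.

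The centre of the scale bears on the sizes above. The median of all tested genes was 0.14, with 3786 of them above 0 and 3730 below. The table leaves out genes with little change, so this median lies beside a gap around 0. It does not measure the centre of the scaling. The shift between groups was 0.013 with TMM and 0.054 with upper-quartile scaling. Relative to the median of all tested genes, 2400 genes of the table were called higher and 3721 lower, where 3557 and 3513 were called before. On that scale the medians were 0.30 on chromosome 21 and 0.51 on 5p, RUNX1 had 0.51 and SDHA 0.57, and 62 members were called higher and 12 lower. The counts above 0, 64 on chromosome 21 and 20 on 5p, could not change. The lowest member above 0 (SCAF4) had 0.16, more than the 0.14 taken off, so nothing is read from them.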

How the data were processed

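Poly(A)-selected RNA of 3 control and 3 SETD8 knockout Kasumi-1 libraries was sequenced by the authors from a directional kit, per the labels' protocols. The submitters' processing notes name hg38, the aligner HISAT2 and DESeq2, with no versions, and no gene counter is named in the sources used here. The values deposited per library are a signal, read counts divided by a size factor (0.959 to 1.07), and dividing by the worth of 1 read gave whole numbers within 0.001 for 100% of values. Where 1 read is worth 0.991 (control 3) or 0.993 (knockout 2), a step this near 1 makes whole reads less certain. The comparison deposited by the authors gives each gene a log2 fold change and a p-value, raw and adjusted over 19860 genes; their log2 fold changes differed from those here by at most 0.072 (AATBC), with the same sign in 96 of 96 members. Coordinates equalled those of GENCODE release 29 for 7974 of 7983 genes.

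The members and all lists were chosen with earlier results of these data known. Genes with a mean of at least 10 (7516) were fitted in R 4.3.3 with limma-trend (limma 3.58.1). The test was two-sided on log2(value + 1) with Benjamini-Hochberg adjustment over 19860 genes, and called at an adjusted p below 0.05. The fit was tested on simulated data. Named genes were RUNX1, SDHA, KMT5A, the 6 highest and 6 lowest members of each region, every member below 0, up to 4 members of each role list with the highest mean, and listed partner genes; other members were named once. Members that stand in a list that does not match their role are URB1, DOP1B and TPPP. Within groups, libraries differed beyond sampling noise (chi-square per degree of freedom 3.84 to 12.0), and none was treated as a repeat. Promoters came from RefSeq (GRCh38.p14) for 76 members.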

Additional observations from a re-analysis of the deposited data

How the results depend on the processing

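The chromosome 21 median of 0.43 became 0.42 with TMM scaling, 0.38 with upper-quartile scaling, 0.30 relative to the median of all tested genes, 0.52 with the length trend removed, 0.42 with edgeR's quasi-likelihood test (4.0.16) and 0.42 with DESeq2 (1.42.0) on the recovered reads, and 0.41 without members that overlap or copy another gene. The 5p median of 0.65 became 0.64, 0.60, 0.51 and 0.70 under the first 4 of these, 0.63 with a mean of at least 200, 0.69 and 0.66 with bounds of 5 and 15 Mb, 0.62 for protein-coding members and 0.69 without overlaps or copies, where 10 of 10 were above 0. The SD on chromosome 21 was 0.85 with a mean of at least 10, 0.43 with 200 and 0.46 for protein-coding members; on 5p it was 0.57, 0.34, 0.54 with the 5 Mb bound and 0.23 without overlaps or copies. RUNX1 moved to 0.51 relative to the median of all tested genes and to 0.89 (rank 11) with the length trend removed, and SDHA to 0.57 and 0.83. DYRK1A turned from -0.17 to 0.18 with the length trend removed. Leaving out each library gave medians of 0.42 to 0.46 and 0.64 to 0.68, SDs of 0.52 to 0.54 and 0.43 to 0.51, 0.61 to 0.71 for RUNX1 (rank 20 to 27), 0.64 to 0.74 for SDHA (rank 8 to 12), and 73 to 80 members called higher and 9 to 10 lower. Table-wide it gave 3053 to 3281 higher and 3057 to 3258 lower calls.

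Replicate numbers did not pair the libraries: same-numbered libraries had deviations that correlated at 0.020, 0.0071 and -0.036 over 6788 genes. With the replicate number as a block, 3569 genes were called higher and 3522 lower, and 81 and 11 members. The length trend and the removal of overlaps or copies were chosen after seeing the data. In that removal only GATD3A and GATD3B counted as copies, so SDHA and PPIAP22 stayed in. Of the 94 members other than RUNX1 and SDHA, 20 lost their call relative to the median of all tested genes and 8 with upper-quartile scaling. Low read numbers limit the members near the floor of 50, whose SE was largest.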
